A study of Rattus norvegicus with 6 samples.

Results

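The rat microRNAs (miRNAs) rno-miR-132-3p, rno-miR-132-5p, rno-miR-212-3p and rno-miR-212-5p are short RNAs that bind messenger RNAs and lower their output. They are made from neighbouring hairpins of one gene region. Both arms of each hairpin, named 3p and 5p for their side of the stem, were taken by name from the probes of a rat miRNA microarray, which gave 4 miRNAs of the 758 on the array, each with 2 probes. The series holds 6 single-colour arrays of myocardium from male rats aged 8 weeks, 1 array per sample. In 3 samples the rats had the chest opened and closed without tying the artery (control, labelled 0 h). In the other 3 the left coronary artery was tied, which cuts off the blood supply of part of the heart muscle and causes a myocardial infarction (MI), and tissue was taken after 24 h. Only rats in which the ligation was judged successful, by electrocardiogram among other signs, entered the MI group. Time after surgery and ligation cannot be told apart, the strain is not given in the sources used here, and no label gives the chamber or says whether a sample holds infarcted or spared muscle. Nothing in the labels says that each sample is a separate animal, and the p-values below measure only the spread between these samples.

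A miRNA finds its targets mainly through its seed, bases 2 to 8 from the 5′ end. MiRNAs with the same seed can act on the same messages. In rodent heart, miR-132 and miR-212 are known to promote growth of cardiac muscle cells (hypertrophy), in part by lowering the transcription factor FoxO3, which restrains growth and drives autophagy. Their shared gene region is known to be switched on by the transcription factor CREB and by growth and inflammatory signals. In each hairpin the 3p arm is the one usually described as the working guide strand, and the 5p arm as its partner.

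The mature sequences are shown because the pair is defined by them, with the seed in capitals. They are RefSeq sequences of build GRCr8, not of rn4, the build the array files name.
rno-miR-132-3p: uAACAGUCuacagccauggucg
rno-miR-212-3p: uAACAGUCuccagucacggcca
rno-miR-132-5p: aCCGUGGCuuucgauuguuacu
rno-miR-212-5p: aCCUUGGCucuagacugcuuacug
Both 3p strands carry the seed AACAGUC. Of the 758 miRNAs on the array, 685 had a sequence in the table, and among these no others shared that seed. Counted from the 5′ end, miR-132-3p and miR-212-3p were identical over the first 9 bases and at 17 of 22 positions. The 5 differences, with the base of miR-132-3p first, were A10C, C14U, U17C, U20C and G22A. The 5p strands had the seeds CCGUGGC and CCUUGGC, which differ at G4U, and no other of the 685 shared either.

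In GRCr8 all 4 lie on the plus strand of chromosome 10, miR-212-5p at chr10:60521771-60521794, miR-212-3p at chr10:60521811-60521832, miR-132-5p at chr10:60522055-60522076 and miR-132-3p at chr10:60522091-60522112. Each lies in an annotated miRNA gene, Mir212 or Mir132, with 0 other annotated genes between these 2. The hairpin of Mir132 shows how its strands sit, with the 5p arm and then the 3p arm in capitals.
Mir132 hairpin: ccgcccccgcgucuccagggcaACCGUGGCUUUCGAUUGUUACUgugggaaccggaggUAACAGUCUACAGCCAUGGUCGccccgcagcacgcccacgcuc

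The 3p strand rno-miR-132-3p was higher in all 3 samples taken after MI, while rno-miR-212-3p, with the same seed and from the same gene region, overlapped between the groups. Neither 5p strand was detected on any array. A miRNA was taken as detected where over 50% of the spots of any of its probes were well above background. On that rule the arrays detected between 446 and 472 miRNAs each, and 272 miRNAs were detected on no array.

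The signal of rno-miR-132-3p is the sum of its probes, with every array brought to a common 75th percentile over the 885 probes that all 6 arrays detected. It was 66.4, 58.8 and 55.4 in control replicates 1, 2 and 3. It was 132, 93.5 and 103 in MI replicates 1, 2 and 3. Every MI array lay above every control array, and the lowest MI value stood 0.49 above the highest control value on the log2 scale. That gap was wider than the SD of either group. Controls averaged 5.91 ± 0.13 (SD, n = 3) in log2 signal, and MI arrays averaged 6.76 ± 0.25 (SD, n = 3). MI replicate 1 was the highest of the 6 arrays and control replicate 3 the lowest.

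**Figure D1:**
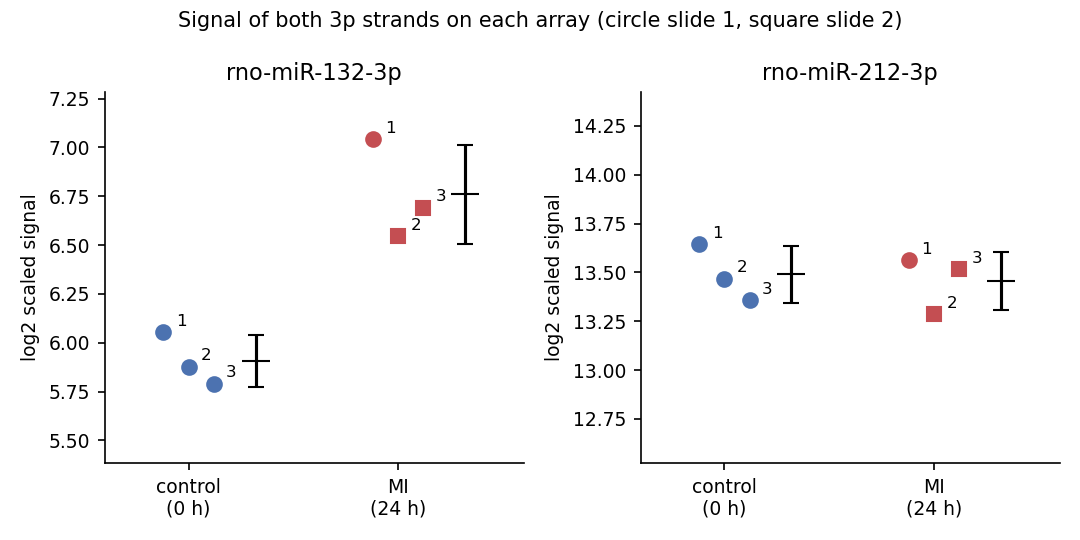
Log2 scaled signal of miR-132-3p (left) and miR-212-3p (right) on each array, with the replicate number beside each point and the mean ± SD of 3 arrays as a bar; both panels span the same log2 range, circles are arrays of slide 1 and squares arrays of slide 2, as assumed from a code in the file headers. The MI arrays of miR-132-3p sit above all control arrays, and those of miR-212-3p lie among them.

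The rise of miR-132-3p was 1.81-fold, with a 95% interval of 1.42 to 2.29. Its log2 fold change was 0.85 ± 0.14 (SE, n = 3 per group; limma adjusted p = 0.0332, by Benjamini-Hochberg over all 449 tested miRNAs). By p it ranked 10 and by size of change 7 of the 449. At this threshold of 0.05, 8 miRNAs (1.78%) were higher and 3 (0.668%) lower, or 2.45% in all. With the 75th percentile over all probes, or the median of probes detected on all arrays, as the scale, 5 were higher and 5 lower. Groups that did not overlap, with MI higher, were seen for 49 miRNAs (10.9%), so this separation alone was common on these arrays.

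The call for miR-132-3p was close to the threshold. It was past it in 12 of 28 alternatives, with adjusted p from 0.0198 to 0.170 in limma. Its log2 fold change was above 0 in all 28. The alternatives overlap, and those of filter, floor, limma setting and replicate number as a block could not change that value. A lower floor repeated the reported fit of miR-132-3p, which counts among the 12. Without 1 sample, its limma adjusted p was 0.0858, 0.170 and 0.149 when control replicate 1, 2 or 3 was left out. It was 0.0491, 0.0558 and 0.0638 when MI replicate 1, 2 or 3 was left out. The log2 fold change in these 6 fits lay between 0.68 and 0.96.

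**Figure D2:**
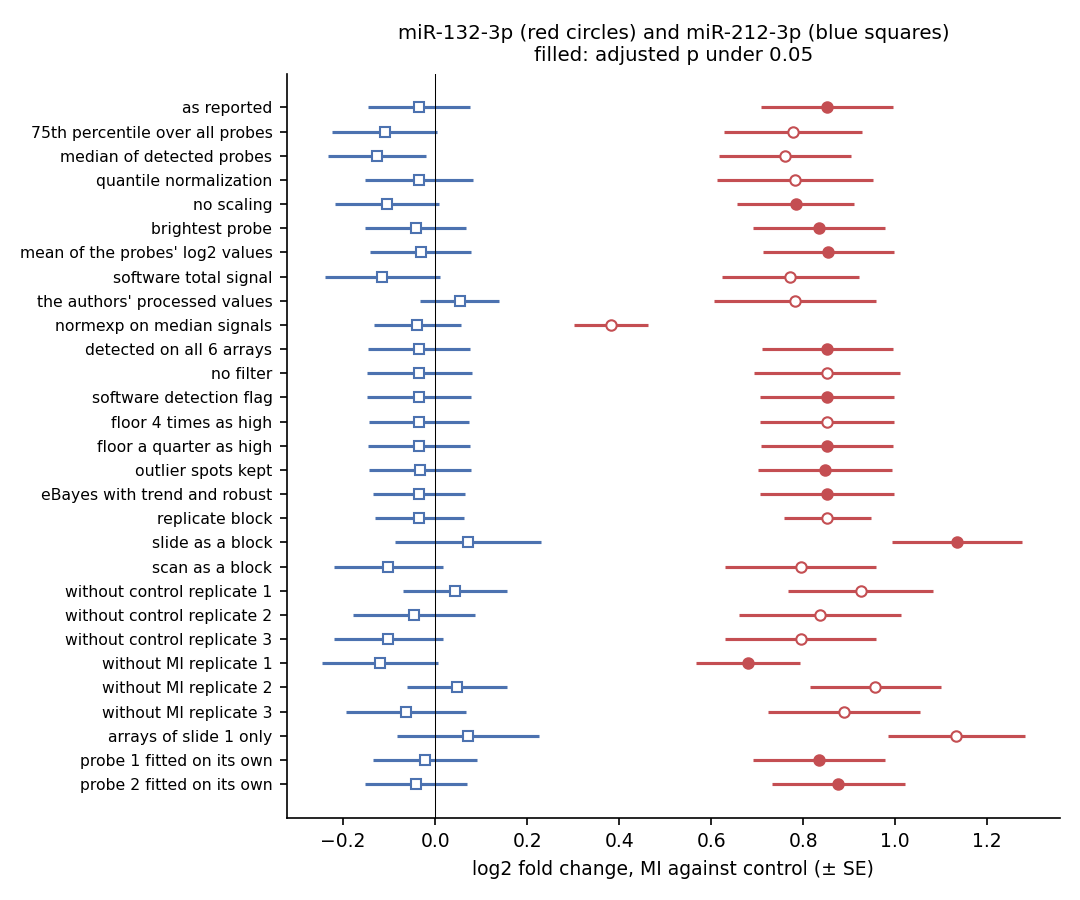
Log2 fold change of MI against control with its standard error, for miR-132-3p (red circles) and miR-212-3p (blue squares), as reported and under 28 alternatives; a filled symbol had an adjusted p under 0.05. Values of miR-132-3p run from 0.38 to 1.13 and those of miR-212-3p from -0.13 to 0.07.

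Both probes of miR-132-3p separated the groups in the same direction. In the order control replicates 1, 2 and 3, then MI replicates 1, 2 and 3, the mean processed signal of the first probe, before scaling, was 38.6, 33.1, 32.5, 67.5, 55.1 and 54.9. The second probe read 30.6, 25.9, 24.3, 52.7, 43.6 and 44.9 in the same order. On both probes MI replicate 1 was the brightest array and control replicate 3 the dimmest. The first probe was between 1.22 and 1.34 times as bright as the second on all arrays. Fitted on their own among 926 probes, a choice made after seeing the data, they gave log2 fold changes of 0.83 ± 0.14 (SE) and 0.88 ± 0.14 (SE), with limma adjusted p of 0.0407 and 0.0362. In that fit 16 probes (1.73%) were higher.

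The spots beneath these means did not overlap between the groups either. Each probe is printed as 8 spots per array, of which 6 to 8 were used for miR-132-3p. After scaling, all 20 MI spots of the first probe read above its brightest control spot, 50.6 or more against 40.5 or less. For the second probe it was all 21, at 37.0 or more against 30.3 or less. Spots of one array share a sample, so these counts describe the measurement and are no test.

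MiR-132-3p was a dim miRNA on this platform, measured well clear of background. Its mean probe signal stood 18.1 to 21.1 SDs of the negative control spots above their mean on control arrays, and 30.8 to 34.5 on MI arrays. The scanner software's own total signal for it, not scaled between arrays, was 34.5, 28.9 and 28.4 in controls and 58.6, 49.0 and 48.7 after MI. The authors' processed values, on a log2 scale, were 5.00, 4.96 and 4.80 in controls and 6.07, 5.46 and 5.58 after MI. The groups were apart on both of these scales. The fit of the authors' processed values gave a log2 fold change of 0.78, with a limma adjusted p of 0.130, against 0.0198 to 0.170 over all alternatives. After normexp correction with its offset of 50, a value near the raw signals of this miRNA, the log2 fold change was 0.38 (limma adjusted p = 0.0693).

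**Figure D3:**
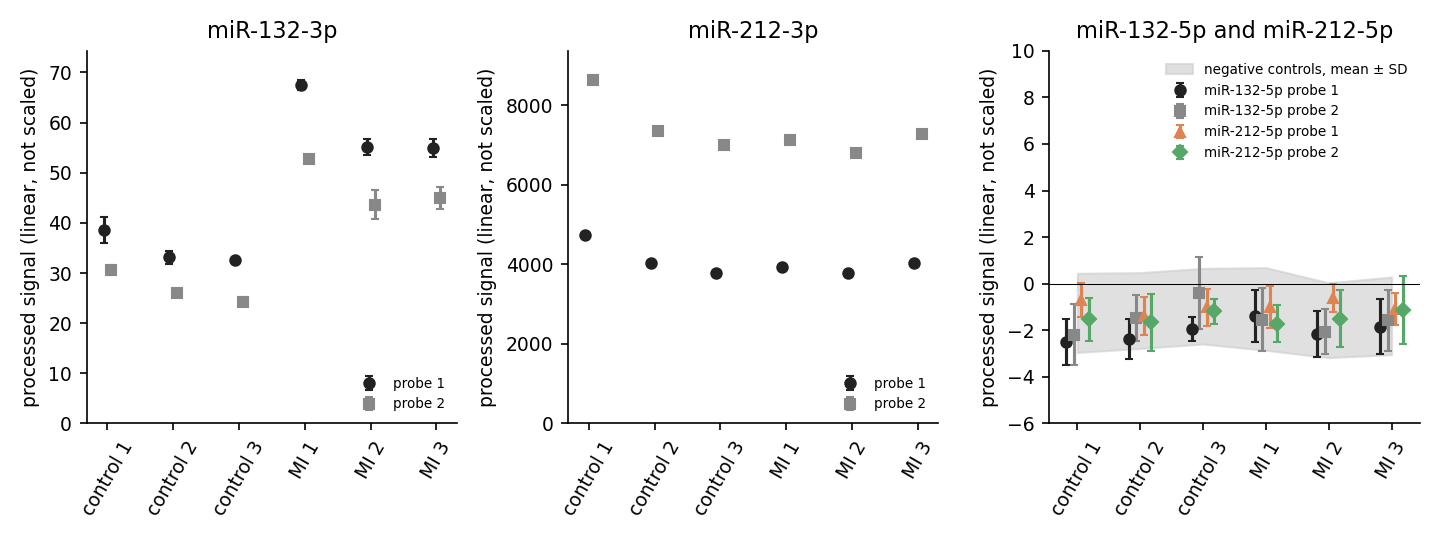
Mean processed signal of each probe on each array, linear and before scaling between arrays, with the SD over spots as error bars; the grey band in the right panel is the mean ± SD of the negative control spots. Both probes of miR-132-3p rise on the MI arrays, both probes of miR-212-3p stay in one range, and the 5p probes lie at the negative controls.

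For rno-miR-212-3p, the relative with the same seed, no such separation was seen. Its scaled signal was 12822, 11332 and 10494 in control replicates 1, 2 and 3, and 12099, 10001 and 11724 in MI replicates 1, 2 and 3. The highest value was in a control and the lowest after MI. Mean log2 signals were 13.49 ± 0.15 (SD, n = 3) for controls and 13.46 ± 0.15 (SD, n = 3) for MI arrays. The log2 fold change was -0.03 ± 0.11 (SE; limma adjusted p = 0.913), and it took the opposite sign under 5 of 28 alternatives.

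The 95% interval of the fold for miR-212-3p ran from 0.811 to 1.18, and its upper end lay below 1.42, the lower end for miR-132-3p. Its spots had a coefficient of variation of 0.546% to 2.17% within an array, against 1.31% to 6.79% for miR-132-3p. Its probes gave log2 fold changes of -0.02 ± 0.11 (SE) and -0.04 ± 0.11 (SE). The authors' processed values for it were 12.46, 12.46 and 12.34 in controls and 12.62, 12.34 and 12.46 after MI, with only 3 distinct values over 6 arrays. Signals of different probes are not on one scale, so only the changes of these 2 miRNAs were compared, not their levels. Probe sequences were not in the sources used here. Whether the probes of either miRNA read that miRNA alone was therefore not checked, and the ratio below carries the same limit.

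**Figure D4:**
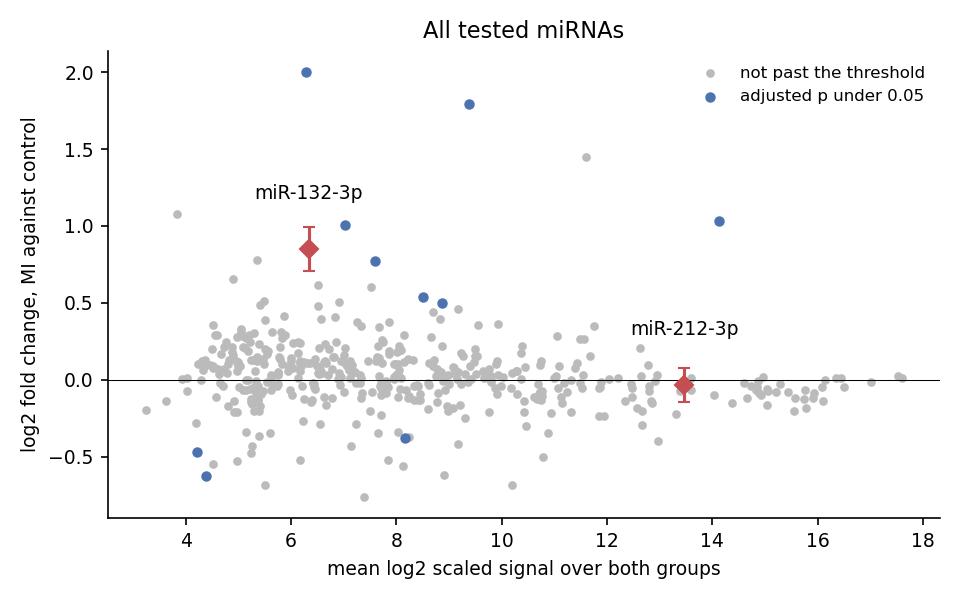
Log2 fold change of MI against control for each of the 449 tested miRNAs (vertical axis) by mean log2 scaled signal (horizontal axis); blue points had an adjusted p under 0.05 and red diamonds with SE bars are miR-132-3p and miR-212-3p. MiR-132-3p stands at 0.85 and miR-212-3p at -0.03.

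Because both 3p strands were read on the same arrays, their change could be set against each other directly. The log2 ratio of miR-132-3p to miR-212-3p within an array needs no scaling between arrays, since any factor of an array cancels. Set to the control mean, this ratio was 0.993, 0.995 and 1.01 in control replicates 1, 2 and 3. It was 2.09, 1.79 and 1.69 in MI replicates 1, 2 and 3. The controls were nearly identical, with an SD of 0.02 on the log2 scale. All 3 MI arrays were well above them and more spread, with an SD of 0.16.

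The ratio rose by 0.89 on the log2 scale, or 1.85-fold, in 3 of 3 MI samples. The 4 members allowed 1 such pair, since only 2 of them were tested. The exact two-sided permutation p was 0.1, the smallest that 3 against 3 arrays allow. In limma over the ratios of 448 other tested miRNAs to miR-212-3p, a fit added after seeing the data, the change was 0.89 ± 0.12 (SE; Benjamini-Hochberg adjusted p = 0.0113; 95% interval of the fold 1.52 to 2.25). In that fit 6 ratios (1.34%) were higher past the threshold. Without any 1 sample the log2 change of the ratio lay between 0.80 and 0.95. It was 0.73 in the authors' processed values and 0.42 with normexp.

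**Figure D5:**
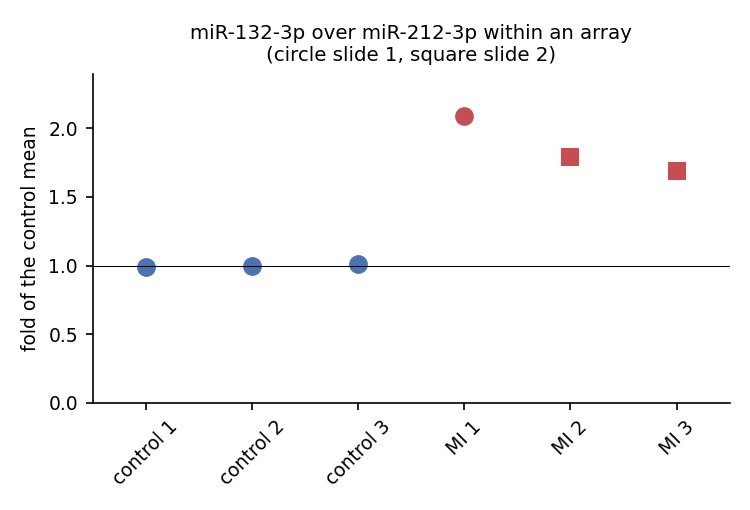
Ratio of miR-132-3p to miR-212-3p on each array as a fold of the control mean; circles are arrays of slide 1 and squares arrays of slide 2. The 3 controls lie between 0.993 and 1.01 and the 3 MI arrays between 1.69 and 2.09.

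Each file header carries a 2-part code, whose first number was taken here as the slide and whose second as the place on it. This reading is an assumption, which no label states, and the slide values below rest on it. On that reading all controls and MI replicate 1 lay on slide 1, and MI replicates 2 and 3 on slide 2. MI replicate 1, the array that shares a slide with the controls, stood 1.13 above the control mean of miR-132-3p on the log2 scale, and the MI arrays of slide 2 stood 0.71 above it. With slide as a block the log2 fold change was 1.13 ± 0.14 (SE; limma adjusted p = 0.0404), in a fit that called 3 miRNAs (0.668%) higher. In the 4 arrays of slide 1 alone, chosen after seeing the data, it was 1.13 (limma adjusted p = 0.0530), in a fit that called 1 of 453 miRNAs (0.221%) higher. Both of these values rest on MI replicate 1 against the controls, with this lone sample assumed to vary as they do. For miR-212-3p the value with slide as a block was 0.07, and for the ratio of both it was 1.06. Slide 2 held MI arrays alone, so no contrast within it exists. Control replicate 3 was scanned apart from the other arrays. With scan as a block, which sets that array aside, miR-132-3p stood at 0.79 (limma adjusted p = 0.149).

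The partner strands, rno-miR-132-5p and rno-miR-212-5p, were at background. None of the 48 spots of any of their 4 probes was well above background on any array. Array means of the first miR-132-5p probe ran from -2.51 to -1.39 with a median of -2.04, and of the second from -2.19 to -0.40 with a median of -1.56. Those of the miR-212-5p probes ran from -1.39 to -0.63 and from -1.71 to -1.12. The negative control spots averaged between -1.57 and -0.97 per array. All 4 probes thus read within 0.76 SD of the negative controls in both groups, and the scanner software marked neither strand as detected on any of 6 arrays. No fold was taken for them, and a change of the 5p strands was not detectable at this signal. The authors' processed values held both at the lowest value of every array.

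MiRNAs most like each 3p strand were found by Pearson correlation of log2 signals over the 6 arrays, among the 432 other miRNAs detected on all of them. All points share an array and its scale factor, and these values carry the group difference. For miR-132-3p the closest were miR-21-5p (r = 0.95, rho = 0.77), a miRNA induced in injured heart, miR-511-3p (r = 0.95, rho = 0.83), and miR-628 (r = 0.94, rho = 1). Their log2 fold changes were 1.03 ± 0.08 (SE), 0.29 ± 0.08 (SE) and 0.27 ± 0.09 (SE), with limma adjusted p of 0.00209, 0.178 and 0.235. Of these, only miR-21-5p was past the threshold.

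For miR-212-3p the closest were miR-6330 (r = 0.99, rho = 1), miR-138-1-3p (r = 0.99, rho = 1) and miR-487b-3p (r = 0.98, rho = 0.94). They stood at -0.04, -0.01 and -0.05 on the log2 scale, none of them past the threshold, and like miR-212-3p they were highest in control replicate 1 and lowest in MI replicate 2. The 3p strands of the pair had r = 0.17 and rho = 0.37 with each other. MiR-212-3p ranked 205 of 432 in likeness to miR-132-3p.

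Other miRNAs reported to act on cardiac hypertrophy give the setting of the pair. Among 12 reported to promote it, all tested, 1 was higher past the adjusted threshold in limma, as were 8 (1.78%) of all tested. It was miR-21-5p, from 13.62 to 14.65 in mean log2 signal. Of the 12, 7 lay above 0, beside 246 of all 449. Before adjustment, 1 was higher and 1 lower in limma at p under 0.05, or 2 of 12. Over all 449 tested miRNAs, 61 (13.6%) were under that p, 38 (8.46%) higher and 23 (5.12%) lower. This unadjusted count of the list was thus near the share over all tested. The median log2 fold change of the list was 0.03, against 0.02 over all 449 tested miRNAs. The heart-enriched miR-208a-3p, from an intron of a myosin heavy chain gene, stood at -0.21 ± 0.08 (SE). The immune-cell miRNA miR-155-5p stood at 0.19 ± 0.10 (SE) and miR-23a-3p at -0.07 ± 0.06 (SE). Their limma adjusted p values were 0.335, 0.491 and 0.674. Except for miR-21-5p, every member of this list lay between -0.21 and 0.22, against 0.85 for miR-132-3p.

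Among 12 miRNAs reported to restrain hypertrophy, 11 were on the array, and 0 passed the adjusted threshold in limma. Before adjustment, 0 were higher and 3 lower at p under 0.05, beside 8.46% and 5.12% of all tested. Of the 11, 10 lay below 0, with a median of -0.09, while 203 of all 449 did. MiR-101a-3p, miR-26a-5p and miR-30a-5p, at -0.22 ± 0.08 (SE), -0.18 ± 0.07 (SE) and -0.16 ± 0.07 (SE), had groups that did not overlap, with MI lower, as did 44 (9.8%) of all tested miRNAs. Their limma adjusted p values were 0.268, 0.331 and 0.352. MiR-9a-5p stood at -0.52 ± 0.26 (SE; limma adjusted p = 0.460).

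Markers of cell types that myocardium can hold were read beside miR-132-3p. In whole tissue, more cells of a type and more RNA per cell cannot be told apart. The 6 cardiomyocyte markers were all detected on all arrays, with 0 past the adjusted threshold. Before adjustment, 1 of the 6 was lower (limma, p under 0.05). Under that p, 5.12% of all tested miRNAs were lower, and 13.6% differed in either direction. The summed log2 signal of the 6 markers was 18.48 to 18.71 in controls and 18.55 to 18.64 after MI.

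Of 5 leukocyte markers, 0 passed the adjusted threshold in limma and 1 was higher before adjustment (p under 0.05, as were 8.46% of all tested). It was miR-223-3p, which is abundant in neutrophils. Its log2 signal was between 10.80 and 10.95 in controls and was 11.64, 12.84 and 12.51 in MI replicates 1, 2 and 3 (log2 fold change 1.45 ± 0.29, SE; limma adjusted p = 0.0619). The summed leukocyte level was 13.88 to 14.07 in controls and 14.00, 14.45 and 14.34 in MI replicates 1, 2 and 3. In MI replicate 1 the sum was inside the range of the controls, while miR-223-3p was above every control. The lymphocyte miRNA miR-150-5p stood at -0.21 ± 0.09 (SE; limma adjusted p = 0.373), with MI below every control, as for 44 (9.8%) of all tested miRNAs. MiR-155-5p, given above, and miR-142-3p, at 0.21 ± 0.12 (SE; limma adjusted p = 0.525), overlapped between the groups, as did miR-142-5p at 0.06 ± 0.12 (SE; limma adjusted p = 0.858).

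The other marker lists had 0 members past the adjusted threshold and 0 at p under 0.05 before adjustment in limma. Endothelial miR-126a-3p stood at -0.14 ± 0.08 (SE, limma adjusted p = 0.491). Its MI arrays lay below every control, as for 44 (9.8%) of all tested miRNAs. Every other member of these lists, endothelial miR-126a-5p among them, overlapped between the groups. The summed log2 signal of 2 endothelial markers was 16.22 to 16.42 in controls and 16.18 to 16.19 after MI. That of 4 smooth muscle and fibroblast markers was 15.92 to 16.17 and 15.90 to 15.97, and that of 2 erythroid markers 14.17 to 14.68 and 14.50 to 15.00. The sum of 3 markers of neural tissue, where miR-132 is abundant, was 10.22 to 10.40 and 9.98 to 10.47. The part of these cell types in the change of miR-132-3p was not tested.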

How the data were processed

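MiRNAs were measured on 6 Agilent rat miRNA arrays, 3 per group, taken from the time in each title. Per the submitters' processing notes the scanner files come from Agilent Feature Extraction, version 11.0.1.1; they name build rn4. The deposited intensity values are linear with background subtracted, per the file headers, and the deposited flags for outlier, detected and well-above-background spots are other columns of 0 or 1. The deposited value table of the authors holds log2 values; its normalization is not given in the sources used here.

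The labels give the dye as Cyanine 3-pCp, while their labelling protocol describes a Cy3 cRNA kit, so the labelling is uncertain.

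Outlier spots (8.03% to 9.29% per array) were left out and no spot was saturated. Spots were averaged by probe, arrays scaled to the 75th percentile (469 to 543) of probes detected on all, probes summed by miRNA, and a floor of 5.14 set before log2. Tested miRNAs were those detected in every array of 1 or both groups. The fit was limma (version 3.58.1, R 4.3.3), with group as its only term; slide, in the alternatives, is a reading of a code in the file headers. The number of arrays limits the precision. Alternatives changed the scaling, background, probe summary, filter, floor, outlier spots, limma setting and blocks, or left out 1 sample; probe-level, slide 1 and ratio fits were added after seeing the data. Signals simulated with known changes were used to check the scaling, summing and fit.

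The members and lists were chosen with earlier results of these data known. Named miRNAs are the 4 members, the 3 most like each tested member, and up to 4 per list by smallest p. The leukocyte list is an exception, with all 5 of its members named. Some miRNAs stand in 2 lists.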

Additional observations from a re-analysis of the deposited data

How the results depend on the processing

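The 28 alternatives overlap, and those of filter, floor, limma setting and replicate block could not change the log2 fold change of miR-132-3p. It stayed above 0 under all 28 but was no longer past the threshold in 16, and the cause was not tested. Its log2 fold changes there were 0.78 with the 75th percentile over all probes and with quantile normalization, 0.76 with the median, 0.77 in the software total signal, 0.78 in the authors' processed values, 0.38 with normexp, 0.79 with scan as a block and 1.13 on slide 1 alone. It was 0.85 with no filter, where 758 miRNAs were tested, and with a floor 4 times as high. With the replicate block it was 0.85 as well (limma adjusted p = 0.0512), in a fit with fewer residual degrees of freedom. The labels give same-numbered samples only a number in common. Their deviations correlated at 0.12, -0.04 and 0.11, and no sample correlated best with its own number. With 3 samples per group these correlations depend on each other, so they cannot settle whether samples were paired. Leaving out 1 sample gave miR-132-3p 0.68 to 0.96, where the 0.68, without MI replicate 1, stayed past the threshold. MiR-212-3p took the opposite sign in 5 alternatives: 0.053 in the authors' processed values, 0.072 with slide as a block, 0.071 on slide 1 alone, 0.048 without MI replicate 2 and 0.043 without control replicate 1. Fits without 1 sample ranged from -0.12 to 0.05. The ratio of both kept its sign in 21 alternatives, but not all of these could move it. A scale factor per array cancels in the ratio, and both strands lay above each floor. Those alternatives returned 0.89 by design and lend no support. In limma over ratios, also at 0.89, the ratio passed the threshold. Leaving out 1 sample gave it 0.80 to 0.95.

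Past the threshold, 8 miRNAs were higher and 3 lower. The counts were 5 and 5 with the 75th percentile over all probes or the median, 6 and 1 with no scaling, and 5 and 3 in the authors' processed values. They were 8 and 1 for miRNAs detected on all 6 arrays, 3 and 2 with no filter, and 5 and 1 with the higher floor. With the replicate block or slide as a block they were 3 and 0, with scan as a block 5 and 0, and on slide 1 alone 1 and 0. Without 1 sample, 4 to 11 were higher and 0 to 1 lower. Counts at an unadjusted p under 0.05 in limma were 62 with the replicate block, 47 with slide, 55 with scan, 51 on slide 1 alone and 36 to 68 without 1 sample. The 5p strands were detected on 0 arrays under the software flag and with outlier spots kept. Signal over background limits what can be said of these 2 strands.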
